A study of Mus musculus with 15 samples.

Results

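The 10 genes described here are a set of macrophage and Fc receptor genes: Fcgr1, Fcgr3, Fcgr4 and Fcgr2b, which encode receptors for the constant part of IgG, C1qa and C1qb, which encode chains of complement C1q, Csf1r, Adgre1 and Cd68, which are widely used to mark macrophages, and Vcan, which encodes the matrix proteoglycan versican. They were taken by name from the 55335 genes in the deposited values, and all 10 passed the filter on low values that left 14385 genes for testing. RNA was sequenced from colon tissue of 15 mice in 3 groups of 5, and every mouse received DSS, dextran sulfate sodium, which injures the colon lining. The groups are named here DSS (DSS alone), DSS_ICB (DSS with immune checkpoint blockade) and DSS_ICB_Fp (the same with a gavage of Faecalibacterium prausnitzii, a butyrate-producing gut bacterium). The labels name neither the checkpoint antibodies nor the strain, age, sex or cages of the mice, nor a control antibody or control gavage, and no group without DSS was analysed here. The mice are numbered 1 to 5 within each group as names only. Nothing in the labels says more about how far the mice of a group are independent, so p-values measure the spread between these libraries.

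Fc gamma receptors bind IgG on antibody-coated targets. Fcgr1 encodes the high-affinity receptor, Fcgr3 and Fcgr4 encode activating receptors of lower affinity that signal through the shared gamma chain encoded by Fcer1g, and Fcgr2b encodes the inhibitory receptor, whose tail carries an inhibitory tyrosine motif (ITIM). C1q binds antibody complexes and dying cells, starts the classical complement pathway and is made largely by tissue macrophages. Csf1r is the receptor that macrophages need for survival, Adgre1 encodes the surface protein F4/80, Cd68 encodes a lysosomal glycoprotein, and versican, which binds hyaluronan, is made by fibroblasts and by monocytes. In the colon, blood monocytes continuously renew most macrophages, and neutrophils and B cells can also carry some of these receptors, Fcgr3 and Fcgr4 on neutrophils and Fcgr2b on B cells. In bulk tissue, fewer cells of a type and less RNA per cell cannot be told apart.

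Sequence at the gene starts is shown because these members tended to vary together between mice. RefSeq promoters (assembly GRCm38.p6, the 250 bases before the start) were read for 7 members, namely Fcgr1, Fcgr3, Fcgr4, Fcgr2b, C1qb, Cd68 and Vcan. The core of sites for PU.1, the macrophage ETS factor encoded by Spi1, was searched as GAGGAA on both strands and was present in 5 of these 7, all but Fcgr2b and Vcan, against 23.4% of 32544 promoters of the same length in the table. Of the 250 bases read, 203 lie in annotated exons for Fcgr2b, 27 for Fcgr3 and 6 for Fcgr4. The absence in Fcgr2b thus rests largely on exon sequence. The STAT site TTCNNNGAA was present in 1 of the 7, Fcgr1, against 7.04% of the promoters. The motifs do not overlap in the Fcgr1 promoter, and a match is a description of the letters only. The promoters of 4 members that hold a motif are given 5′ to 3′ on the strand of the gene, with the motifs in capitals (TTCCTC is GAGGAA read on the other strand).
Fcgr1, chr3:96293970-96294219, minus strand: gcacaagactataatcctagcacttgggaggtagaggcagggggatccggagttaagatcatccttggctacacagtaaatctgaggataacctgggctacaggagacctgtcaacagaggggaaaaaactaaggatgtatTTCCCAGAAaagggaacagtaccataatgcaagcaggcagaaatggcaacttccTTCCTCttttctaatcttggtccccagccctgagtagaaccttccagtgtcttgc
Fcgr4, chr1:171018676-171018925, plus strand: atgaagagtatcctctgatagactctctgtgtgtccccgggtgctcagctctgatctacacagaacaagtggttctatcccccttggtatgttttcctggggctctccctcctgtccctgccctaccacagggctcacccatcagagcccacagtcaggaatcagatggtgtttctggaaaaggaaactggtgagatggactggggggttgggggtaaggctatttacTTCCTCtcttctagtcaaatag
C1qb, chr4:136886201-136886450, minus strand: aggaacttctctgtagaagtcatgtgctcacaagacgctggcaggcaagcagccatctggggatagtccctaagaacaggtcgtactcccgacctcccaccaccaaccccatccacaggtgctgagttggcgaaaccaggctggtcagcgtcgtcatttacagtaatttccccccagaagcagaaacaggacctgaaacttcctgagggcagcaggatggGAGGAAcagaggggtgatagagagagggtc
Cd68, chr11:69666171-69666420, minus strand: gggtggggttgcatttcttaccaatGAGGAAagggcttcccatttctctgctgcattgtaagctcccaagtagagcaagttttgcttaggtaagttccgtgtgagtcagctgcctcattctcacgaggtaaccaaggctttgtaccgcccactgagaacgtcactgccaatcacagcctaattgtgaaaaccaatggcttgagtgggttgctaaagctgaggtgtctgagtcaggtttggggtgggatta

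The transcripts of Fcgr2b and Fcgr3 are alike in part, which bears on how far their FPKM values are separate. In the GENCODE M21 transcripts, the longest identical coding stretch of the pair is 129 bases long, at coding bases 278 to 406 of Fcgr2b and 263 to 391 of Fcgr3. Of all windows of 50 bases along the Fcgr2b transcript, 4.75% also occur in Fcgr3, and of those along the Fcgr3 transcript, 12.8% also occur in Fcgr2b. How the counting dealt with reads from there is not given in the sources used here, so the split between the inhibitory and the activating gene is uncertain to that extent. The shared stretch is followed here by the stretch of Fcgr2b that codes the ITIM consensus near the end of the protein (from codon 317, the motif in capitals with 9 bases on each side), which tells the inhibitory receptor from the activating ones by function, although the consensus letters alone also match once in the Fcgr4 coding sequence.
Fcgr2b and Fcgr3, shared coding stretch: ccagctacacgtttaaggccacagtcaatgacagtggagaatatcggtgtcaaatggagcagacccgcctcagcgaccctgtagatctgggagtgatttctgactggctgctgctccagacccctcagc
Fcgr2b, coding stretch with the ITIM: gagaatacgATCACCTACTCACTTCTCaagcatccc

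All 10 genes lie on the GRCm38 assembly, which is the assembly of mm10, the build named in the submitters' processing notes. How reads were assigned to each gene is not given in the sources used here. Fcgr2b (ENSMUSG00000026656, chr1:170958617-170976547, minus strand), Fcgr4 (ENSMUSG00000059089, chr1:171018920-171029761, plus strand) and Fcgr3 (ENSMUSG00000059498, chr1:171051174-171064935, minus strand) are neighbours, whereas Fcgr1 (ENSMUSG00000015947) lies at chr3:96282909-96293969 on the minus strand. C1qb (ENSMUSG00000036905, chr4:136880129-136886187) and C1qa (ENSMUSG00000036887, chr4:136895917-136898803) are close together on the minus strand, with C1qc between them. Cd68 (ENSMUSG00000018774) lies at chr11:69664213-69666153 on the minus strand, Vcan (ENSMUSG00000021614) at chr13:89655312-89742509 on the minus strand, Adgre1 (ENSMUSG00000004730) at chr17:57358691-57483527 on the plus strand and Csf1r (ENSMUSG00000024621) at chr18:61100598-61132149 on the plus strand. The annotated span of Csf1r overlaps that of Hmgxb3 on the opposite strand over 873 bases, and how much of this is exon was not read. Hmgxb3 itself had 1.64 to 3.28 FPKM. Since no source used here gives a strand setting, any reads from exons in that overlap cannot be assigned to either gene with certainty.

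A pair of DSS_ICB libraries stood apart over all genes. The median Spearman correlation of a library with the other 14 was 0.725 for DSS_ICB 3 and 0.864 for DSS_ICB 5, against 0.922 to 0.9497 for the other 13. DSS_ICB 3 also had the highest share of FPKM in mitochondrially encoded genes, 33.2%, against 9.39% to 25.8% in the others. The labelled tissue was checked against its markers: summed FPKM of 10 epithelial markers was 3985 to 7657 in 14 libraries, and 810 in DSS_ICB 3, which had the highest sum of 8 smooth muscle markers, 15084 against 1096 to 4814. Depth, estimated from the steps between low values, was 15.4 to 25.1 M (mega) fragments per library. Results below are therefore given with both libraries and, where it matters, without them.

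Each member was measured above 0 in all 15 mice. FPKM is scaled to transcript length, so levels can be set side by side between genes: in DSS mice the mean FPKM was highest for C1qb (54.4 ± 10.4, SD, n = 5) and C1qa (53.4 ± 10.2), followed by Cd68 (20.7 ± 4.78), Fcgr3 (11.9 ± 2.98), Csf1r (9.14 ± 1.52), Adgre1 (8.64 ± 1.71), Fcgr2b (5.63 ± 1.46), Fcgr4 (4.15 ± 1.27), Vcan (3.15 ± 0.935) and Fcgr1 (1.86 ± 0.3004). Within this order the neighbours C1qb and C1qa, Fcgr3 and Csf1r, Csf1r and Adgre1, and Fcgr4 and Vcan were less than the larger SD of the pair apart. For all 10 genes the group medians had the same order, with DSS_ICB highest, DSS between and DSS_ICB_Fp lowest. The share of all tested genes in this order was not computed, and some steps were small. The Fcgr4 median was 3.63 FPKM in DSS and 3.59 in DSS_ICB_Fp. The Adgre1 median was 8.98 FPKM in DSS_ICB and 8.74 in DSS, while its mean was lower in DSS_ICB, 8.36 against 8.64. The ranges of DSS and DSS_ICB overlapped for all 10 genes, as did those of DSS and DSS_ICB_Fp. The ranges of DSS_ICB and DSS_ICB_Fp did not overlap for Fcgr4 and Vcan, with DSS_ICB_Fp lower, as for 2.46% of all tested genes. The spread was widest in DSS_ICB for every member, with a coefficient of variation of 43.5% to 95.2%, against 16.2% to 30.7% in DSS and 12.4% to 55.8% in DSS_ICB_Fp. The share of all tested genes with the widest spread in DSS_ICB was not computed, so this cannot be read as particular to the members.

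**Figure D1:**
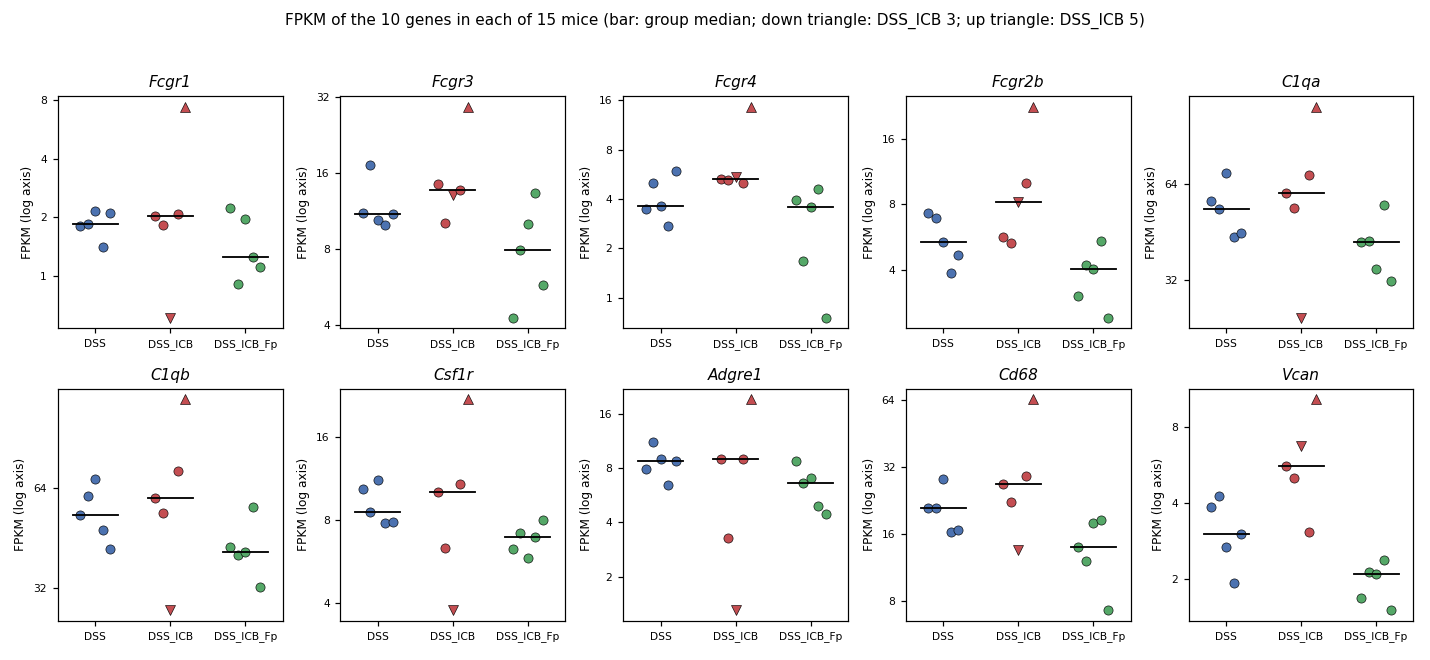
FPKM of each of the 10 genes (log vertical axis) in the 15 mice, by group, with the group median as a bar, DSS_ICB 3 as a downward and DSS_ICB 5 as an upward triangle. DSS_ICB 5 is the highest mouse in every panel, and in the Fcgr4 and Vcan panels all 5 DSS_ICB_Fp mice lie below all 5 DSS_ICB mice.

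Among the activating receptors, Fcgr4 separated the 2 checkpoint-blockade groups. Its FPKM was 5.31, 5.23, 5.47, 5.03 and 14.6 in DSS_ICB mice 1 to 5, and 3.96, 1.67, 3.59, 4.59 and 0.755 in DSS_ICB_Fp mice 1 to 5. In DSS mice 1 to 5 it was 3.49, 4.98, 3.63, 2.73 and 5.91. The other 4 DSS_ICB mice were close together between 5.03 and 5.47, with DSS_ICB 5 far above, and the highest DSS_ICB_Fp mouse, at 4.59, was below the lowest DSS_ICB mouse. The mean was 7.14 ± 4.20 in DSS_ICB and 2.91 ± 1.63 in DSS_ICB_Fp, a difference of -1.07 ± 0.33 (SE) in log2(FPKM + 1), the scale of all differences below, with an adjusted p of 0.113 in limma. The mean of the 3 DSS_ICB mice other than 3 and 5 was 5.19 ± 0.142. Against DSS the difference of DSS_ICB was 0.58 ± 0.33 (limma adjusted p = 0.482), and that of DSS_ICB_Fp was -0.49 ± 0.33 (limma adjusted p = 0.9997).

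Fcgr3, the most abundant of the 4 receptor genes in each group, had 14.5, 10.1, 13.03, 13.7 and 29.2 FPKM in DSS_ICB mice 1 to 5. In the 5 DSS_ICB_Fp mice it had 4.26, 7.91, 9.99, 13.3 and 5.73 FPKM. In DSS mice it had 11.1, 17.2, 10.4, 9.95 and 11.004 FPKM, where mouse 2 was above every other DSS mouse. In the gavage group, 4 of 5 mice were below the lowest DSS_ICB mouse, and DSS_ICB_Fp 4 lay within the DSS_ICB range. The means were 16.1 ± 7.52 in DSS_ICB and 8.24 ± 3.57 in DSS_ICB_Fp, and the difference of -0.89 ± 0.28 had an adjusted p of 0.119 in limma. The DSS_ICB mean of Fcgr3 without DSS_ICB 3 and 5 was 12.8 ± 2.302 FPKM (n = 3). The high-affinity receptor gene Fcgr1 was the least abundant and the most variable in DSS_ICB, at 2.02, 1.82, 0.606, 2.07 and 7.395 FPKM. DSS_ICB 3 was the lowest and DSS_ICB 5 the highest of all 15 mice for this gene. DSS mice had 1.81, 1.84, 2.16, 1.398 and 2.096 FPKM and DSS_ICB_Fp mice 2.23, 0.9, 1.95, 1.25 and 1.105 FPKM, so the groups overlapped throughout. Between DSS_ICB_Fp and DSS_ICB the Fcgr1 difference was -0.41 ± 0.32 (limma adjusted p = 0.467).

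The inhibitory receptor gene Fcgr2b was 5.69, 5.35, 8.17, 9.996 and 22.4 FPKM in DSS_ICB mice 1 to 5. In DSS_ICB_Fp mice 1 to 5 it was 3.05, 4.24, 4.06, 5.42 and 2.42 FPKM. In DSS mice 1 to 5 it was 7.31, 6.92, 5.39, 3.88 and 4.67 FPKM. DSS_ICB mice 3, 4 and 5 were above all DSS and all DSS_ICB_Fp mice, and DSS_ICB_Fp 4, at 5.42, was the sole mouse of its group inside the DSS_ICB range. The mean was 10.3 ± 7.02 in DSS_ICB and 3.84 ± 1.16 in DSS_ICB_Fp, 0.372 of the former. The difference was -1.08 ± 0.30 (limma adjusted p = 0.0937), and that of DSS_ICB against DSS was 0.62 ± 0.30 (limma adjusted p = 0.452). Without DSS_ICB 3 and 5 the DSS_ICB mean was 7.01 ± 2.59 FPKM (n = 3).

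Ratios within a mouse do not depend on how its library was scaled. The log2 ratio of Fcgr3 to Fcgr2b was 1.09 ± 0.32 in DSS, 0.76 ± 0.39 in DSS_ICB and 1.04 ± 0.35 in DSS_ICB_Fp (mean ± SD, n = 5). The ratio of Fcgr4 to Fcgr2b was -0.45 ± 0.50, -0.46 ± 0.40 and -0.61 ± 0.86 in the same order, and that of Fcgr1 to Fcgr2b was -1.57 ± 0.37, -2.14 ± 0.96 and -1.40 ± 0.76. All 3 ratios of an activating to the inhibitory receptor overlapped between the groups. The ratio of Fcgr1 to Fcgr2b was lowest, at -3.75, in DSS_ICB 3.

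**Figure D2:**
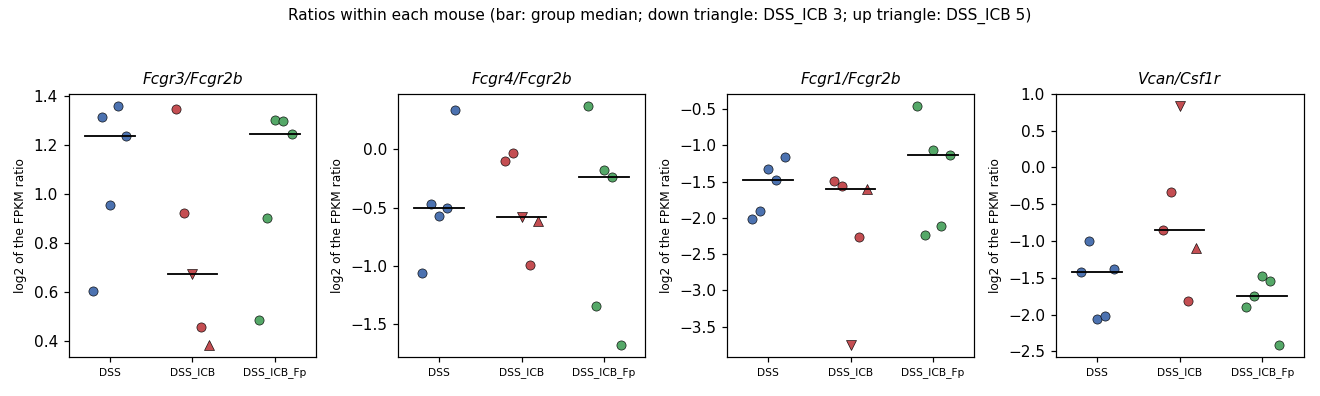
Log2 ratios of FPKM within each mouse for 3 activating receptors over Fcgr2b and for Vcan over Csf1r, by group, with the group median as a bar and triangles for DSS_ICB 3 (down) and DSS_ICB 5 (up). The receptor ratios overlap between all groups, whereas for Vcan over Csf1r DSS_ICB 3 has the highest ratio of all mice, 0.84.

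The partners of the Fc receptors were described from a list of 13 genes of binding and signalling. None passed the adjusted threshold of limma in any comparison. All 13 differences of DSS_ICB_Fp against DSS_ICB were below 0, 8 of them at an unadjusted p under 0.05, with a median of -0.62, against -0.04 over all tested genes. Of all tested genes, 55.5% were below 0 there and 12.4% were lower at an unadjusted p under 0.05. Without DSS_ICB 3 and 5, 11 of the 13 were below 0, with a median of -0.47. Fcer1g, the gamma chain itself, had 38.8 ± 15.99 FPKM in DSS_ICB, 15.3 ± 4.76 in DSS_ICB_Fp and 17.99 ± 3.99 in DSS. Its lowest DSS_ICB mouse, at 23.5 FPKM, was above the highest mouse of each other group, 21.3 in DSS_ICB_Fp and 22.1 in DSS, and the difference of DSS_ICB_Fp against DSS_ICB was -1.25 ± 0.27 (limma adjusted p = 0.0712). Tyrobp, a related adaptor of myeloid receptors, had a difference of -1.12 ± 0.25 (limma adjusted p = 0.0712), and Fgr, a Src-family kinase of myeloid cells, one of -1.32 ± 0.32 (limma adjusted p = 0.0792). For DSS_ICB against DSS the median over the 13 genes was 0.23, and it was 0.03 without DSS_ICB 3 and 5.

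The C1q genes varied as a pair, with no difference between groups past the threshold. C1qa was 59.9, 53.8, 24.4, 67.9 and 111 FPKM in DSS_ICB mice 1 to 5, and C1qb in the same mice was 59.7, 54.04, 27.5, 72.2 and 118 FPKM. The DSS_ICB_Fp mice had 42.1, 42.4, 34.7, 55.01 and 31.8 FPKM of C1qa and 42.7, 40.3, 41.2, 56.05 and 32.3 FPKM of C1qb. The log2 ratio of C1qa to C1qb lay between -0.25 and 0.09 in all 15 mice, while C1qa itself ranged from 24.4 to 111 FPKM. DSS_ICB 3 was the lowest and DSS_ICB 5 the highest of 15 mice for both genes. All 5 DSS_ICB_Fp mice were below the DSS_ICB median but above DSS_ICB 3, so the groups overlapped. The differences of DSS_ICB_Fp against DSS_ICB were -0.48 ± 0.30 for C1qa (limma adjusted p = 0.353) and -0.50 ± 0.29 for C1qb (limma adjusted p = 0.318). Leaving out DSS_ICB 3 and 5, the DSS_ICB means were 60.5 ± 7.05 and 61.98 ± 9.305 FPKM (n = 3). DSS mice had 56.5, 53.2, 68.8, 43.7 and 44.8 FPKM of C1qa and 53.3, 60.5, 68.3, 47.9 and 41.97 FPKM of C1qb, and against DSS the DSS_ICB_Fp mean was 0.772 of the DSS mean for C1qa and 0.782 for C1qb, with a limma adjusted p of 0.9997 for both.

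Among 16 tested complement genes of a list of 17, none passed the adjusted threshold of limma in any comparison. In DSS_ICB_Fp against DSS_ICB, 14 of the 16 were below 0, 11 of them at an unadjusted p under 0.05, with a median of -0.70, which was -0.41 without DSS_ICB 3 and 5. The shares of all tested genes were 55.5% below 0 and 12.4% lower at that unadjusted p. The smallest p-values were those of C4b, the classical-pathway component downstream of C1, with a difference of -1.10 ± 0.24 (limma adjusted p = 0.0712), Cd93, a surface glycoprotein of endothelial and myeloid cells, with -0.75 ± 0.19 (limma adjusted p = 0.0844), and C1s1, the serine protease of the C1 complex, with -0.77 ± 0.20 (limma adjusted p = 0.0851). C1s1 had 60.7 ± 20.7 FPKM in DSS_ICB and 34.0 ± 4.95 in DSS_ICB_Fp, and the groups did not overlap. C1qc, the gene of the remaining C1q chain, was at 37.0 ± 20.9 and 25.6 ± 3.23 FPKM and overlapped, as C1qa and C1qb did.

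Of the macrophage markers, Cd68 differed most between the groups. It had 26.98, 22.4, 13.5, 29.4 and 64.8 FPKM in DSS_ICB mice 1 to 5 and 13.996, 12.1, 17.96, 18.4 and 7.26 FPKM in DSS_ICB_Fp mice 1 to 5. In DSS mice 1 to 5 it had 21.04, 20.99, 28.3, 16.3 and 16.8 FPKM. All 5 DSS_ICB_Fp mice were below the medians of both other groups, and 4 DSS_ICB mice were above the DSS_ICB_Fp group, with DSS_ICB 3 inside it. The mean was 31.4 ± 19.6 in DSS_ICB and 13.96 ± 4.59 in DSS_ICB_Fp, and the difference of -0.997 ± 0.33 had an adjusted p of 0.126 in limma. Without DSS_ICB 3 and 5 the DSS_ICB mean was 26.2 ± 3.56 FPKM (n = 3).

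Csf1r, by contrast, was 10.1, 6.34, 3.75, 10.8 and 21.98 FPKM in DSS_ICB mice 1 to 5 and 6.26, 7.17, 5.803, 6.96 and 8.002 FPKM in DSS_ICB_Fp mice 1 to 5. DSS mice 1 to 5 had 10.4, 8.56, 11.1, 7.81 and 7.86 FPKM. The gavage group was the tightest of all, and 4 of its 5 mice were below the lowest DSS mouse, while both other groups overlapped it. The difference of DSS_ICB_Fp against DSS_ICB was -0.37 ± 0.30 (limma adjusted p = 0.489), and that of DSS_ICB against DSS was 0.0046 ± 0.30 (limma adjusted p = 0.996), a value whose sign turned under several settings. Adgre1 was 9.01, 3.28, 1.304, 8.98 and 19.2 FPKM in DSS_ICB mice 1 to 5, with DSS_ICB 2 and 3 below every mouse of the other groups. It was 8.79, 6.62, 7.02, 4.94 and 4.47 FPKM in DSS_ICB_Fp mice and 7.89, 11.1, 9.02, 6.44 and 8.74 FPKM in DSS mice. The difference of DSS_ICB_Fp against DSS_ICB was -0.0067 ± 0.43 (limma adjusted p = 0.995), also with a sign that depended on single mice, although the FPKM mean of DSS_ICB_Fp was 0.762 of the DSS_ICB mean. Leaving out DSS_ICB 3 and 5, the DSS_ICB means were 9.06 ± 2.39 FPKM for Csf1r and 7.09 ± 3.295 for Adgre1 (n = 3).

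Cd68 and Csf1r did not keep one proportion across the mice. The log2 ratio of Cd68 to Csf1r was 1.16 ± 0.14 in DSS, with a range of 1.02 to 1.34, and 1.62 ± 0.20 in DSS_ICB, with a range of 1.42 to 1.85, so these groups did not overlap. In DSS_ICB_Fp it was 0.96 ± 0.70 with a range of -0.14 to 1.63 that overlaps both. The ratio of Fcgr4 to Csf1r was -1.18 ± 0.55 in DSS, -0.47 ± 0.65 in DSS_ICB and -1.49 ± 1.24 in DSS_ICB_Fp, with overlap throughout. These are 2 of 7 ratios computed, and none was tested.

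Ligands and transcription factors of the CSF1 axis were described from a list of 12 genes, of which 11 were tested and none passed the adjusted threshold of limma in any comparison. In DSS_ICB_Fp against DSS_ICB the median difference was -0.57 and 10 of 11 were below 0, 7 of them at an unadjusted p under 0.05, and in DSS_ICB against DSS the median was 0.51 and all 11 were above 0, again 7 at an unadjusted p under 0.05. These medians were -0.32 and 0.27 without DSS_ICB 3 and 5. In the first comparison 55.5% of all tested genes were below 0 and 12.4% were lower at an unadjusted p under 0.05. In the second 52.8% were above 0 and 7.08% were higher at that p. Spi1, which encodes PU.1, had 7.33 ± 4.26 FPKM in DSS_ICB, 2.19 ± 0.453 in DSS_ICB_Fp and 3.03 ± 1.001 in DSS, with a difference between the first pair of -1.25 ± 0.28 (limma adjusted p = 0.0712). Its highest DSS_ICB_Fp mouse, at 2.803 FPKM, was below its lowest DSS_ICB mouse, at 3.43. Cebpb, a transcription factor of inflammatory myeloid cells, had a difference of -1.55 ± 0.46 (limma adjusted p = 0.103) and Maf, a factor of resident macrophages, one of -0.79 ± 0.24 (limma adjusted p = 0.1101). The ligand genes Csf1 and Il34, singled out after their values were seen, had differences of -0.75 ± 0.27 (limma adjusted p = 0.142) and -0.48 ± 0.15 (limma adjusted p = 0.119). Csf2, untested, was listed at 0 in 9 libraries.

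Vcan was the member with the clearest separation. It had 5.602, 5.01, 6.72, 3.07 and 10.3 FPKM in DSS_ICB mice 1 to 5, 1.68, 2.13, 2.09, 2.38 and 1.504 FPKM in DSS_ICB_Fp mice 1 to 5 and 3.85, 4.27, 2.68, 1.92 and 3.03 FPKM in DSS mice 1 to 5. The highest DSS_ICB_Fp mouse was at 2.38 and the lowest DSS_ICB mouse at 3.07, and 4 of 5 DSS_ICB mice were above every DSS mouse. The mean was 6.14 ± 2.67 in DSS_ICB, 1.96 ± 0.357 in DSS_ICB_Fp and 3.15 ± 0.935 in DSS. DSS_ICB_Fp was at 0.319 of DSS_ICB, and the difference of -1.20 ± 0.23 had an adjusted p of 0.0515 in limma, just over the threshold, and rank 23 by p among the 14385 genes. Against DSS the difference of DSS_ICB was 0.73 ± 0.23 (limma adjusted p = 0.418). Without DSS_ICB 3 and 5 the DSS_ICB mean was 4.56 ± 1.33 FPKM (n = 3), still above all DSS_ICB_Fp mice. Unlike C1q, Csf1r and Adgre1, which were lowest of 15 in DSS_ICB 3, Vcan in that mouse was 6.72 FPKM, higher than in 13 others, and the log2 ratio of Vcan to Csf1r was 0.84 there, against -1.81 to -0.34 in the other 4 DSS_ICB mice.

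Matrix genes that act with versican, such as hyaluronan synthases, small proteoglycans and versican-cleaving proteases, formed a list of 15 genes, of which 9 were tested. None passed the adjusted threshold of limma in any comparison, and in DSS_ICB_Fp against DSS_ICB 8 of 9 were below 0, 7 of them at an unadjusted p under 0.05, with a median of -0.69. The shares of all tested genes were 55.5% below 0 and 12.4% lower at that unadjusted p. Cd44, a receptor of hyaluronan, had a difference of -1.02 ± 0.26 (limma adjusted p = 0.0844), Adamts1, a versican-cleaving protease, one of -1.33 ± 0.35 (limma adjusted p = 0.08697), and Bgn, which encodes biglycan, one of -0.97 ± 0.26 (limma adjusted p = 0.0873). In DSS_ICB against DSS the median of the list was 0.76, and 0.42 over the 7 genes that remained testable without DSS_ICB 3 and 5.

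Over the members as a set, limma called 0 of 10 in each of the 3 comparisons. In DSS_ICB_Fp against DSS_ICB, 0.132% of all tested genes were called (0.125% lower and 0.00695% higher). At an unadjusted p under 0.05 9.34% were higher, among them no member, and 12.4% were lower, among them 5 of the 10 members (Fcgr3, Fcgr4, Fcgr2b, Cd68 and Vcan). All 10 members were below 0 there, as were 55.5% of all tested genes, and the median was -0.70, against -0.04 over all. Groups that did not overlap, with DSS_ICB_Fp lower, were found for 2 members and for 2.46% of the tested genes, and with DSS_ICB_Fp higher for no member and 0.945% of the genes. In DSS_ICB against DSS, 0.0209% of the tested genes were called, and at an unadjusted p under 0.05 7.08% were higher, among them 1 member, Vcan, and 4.22% lower, among them no member. There 9 of 10 members were above 0, against 52.8% of all genes, with a median of 0.26 against 0.02, and no member had groups without overlap, against 1.21% of the genes with DSS_ICB higher and 0.327% with DSS_ICB lower. In DSS_ICB_Fp against DSS, 0% of the genes were called, and 0 members were under an unadjusted p of 0.05, against 0.591% of the genes higher and 0.82% lower. There all 10 members were below 0 (52.9% of all genes) with a median of -0.43 against -0.01. No member had groups without overlap there, against 0.195% of the genes in each direction. An exact permutation test per gene has 252 arrangements of 5 against 5 mice, too few for any gene to pass after adjustment over all tested genes here. The first 2 comparisons share the DSS_ICB mice, and each of the 3 pairs shares a group.

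**Figure D3:**
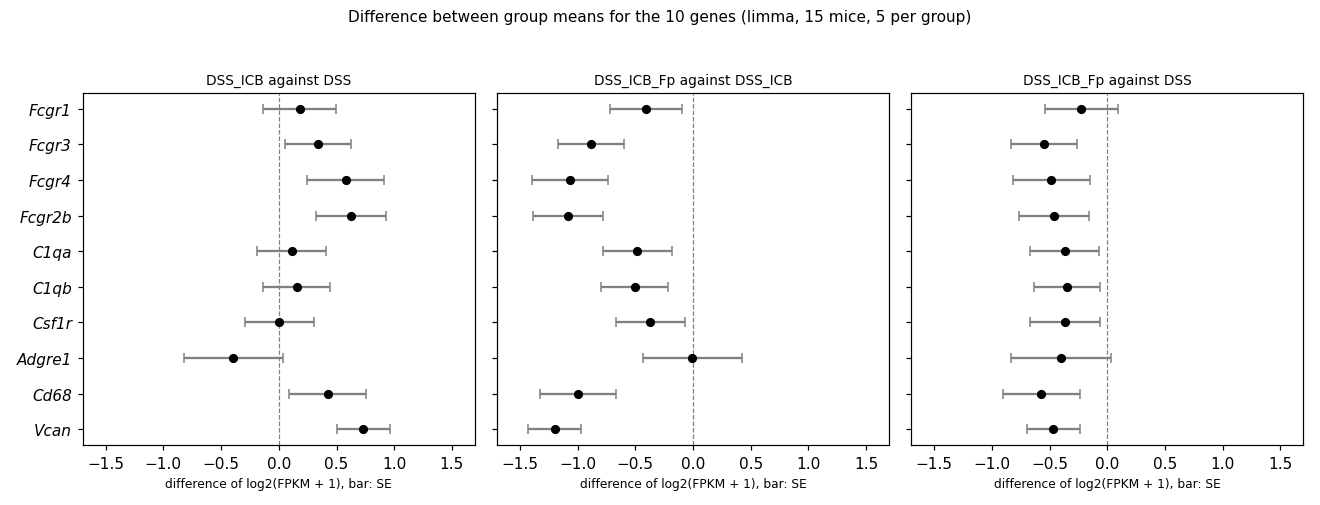
Difference of group means in log2(FPKM + 1) with its SE from limma for each of the 10 genes, 1 panel per comparison (15 mice, 5 per group). In the middle panel Vcan, Fcgr2b, Fcgr4 and Cd68 lie between -0.997 and -1.20, Fcgr3 lies at -0.89 and Adgre1 lies at -0.0067.

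Single mice weighed on these values. DSS_ICB 5 was the highest of 15 for all 10 members. DSS_ICB 3 was the lowest of 15 for 5 members (Fcgr1, C1qa, C1qb, Csf1r and Adgre1), yet was above all 10 mice of the other groups for Fcgr2b and Vcan. DSS_ICB_Fp 5 was the lowest of 15 for 4 members, and DSS_ICB_Fp 1 for Fcgr3. How often each mouse was highest or lowest over all tested genes was not computed. DSS_ICB 3 and 5 stood apart over all genes, so these places cannot be read as particular to the members. Without DSS_ICB 5 alone, the median member difference of DSS_ICB against DSS was 0.01, with 5 members below 0, and without DSS_ICB 3 alone it was 0.43. Without both it was 0.19, and the median of DSS_ICB_Fp against DSS_ICB was then -0.61, with 0 members called and 0.127% of all tested genes.

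**Figure D4:**
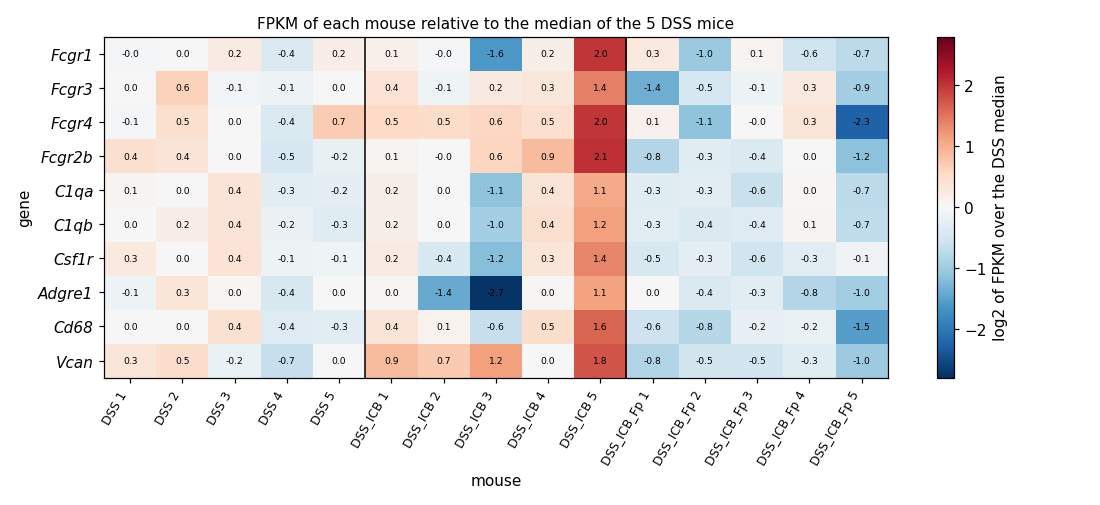
Log2 of the FPKM of each gene (rows) in each mouse (columns) over the median of the 5 DSS mice, in colour and digits. The DSS_ICB 5 column is raised for all 10 genes, and the DSS_ICB 3 column is lowered for Fcgr1, C1qa, C1qb, Csf1r, Adgre1 and Cd68 and raised for Fcgr3, Fcgr4, Fcgr2b and Vcan.

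Markers of cell types that could carry these transcripts were read in the same fit. For the counts of lower markers in DSS_ICB_Fp against DSS_ICB given from here on, the share of all tested genes was 12.4% at an unadjusted p under 0.05. Resident macrophage markers (14 tested of 16) had a median difference of -0.59 in DSS_ICB_Fp against DSS_ICB with 0 called by limma and 5 lower at an unadjusted p under 0.05, and their summed FPKM was 327 to 510 in DSS, 293 to 931 in DSS_ICB and 277 to 308 in DSS_ICB_Fp. A large part of that sum was Lyz2, singled out after its values were seen. Lyz2 had 226 to 387 FPKM in DSS, 114 to 629 in DSS_ICB and 173 to 214 in DSS_ICB_Fp. The smallest p-values in that list were those of Aif1, a macrophage calcium-binding protein, at -0.67 ± 0.22 (limma adjusted p = 0.119), Lyve1 at -0.68 ± 0.25 (limma adjusted p = 0.144) and Cd14 at -0.86 ± 0.31 (limma adjusted p = 0.146). Of the 14 tested, 12 were below 0. The 2 above 0 were Mertk at 0.67 ± 0.32 (limma adjusted p = 0.238) and Folr2 at 0.15 ± 0.35 (limma adjusted p = 0.836), both singled out after their values were seen. The median of this list was -0.39 without DSS_ICB 3 and 5. Monocyte markers (10 of 11) had a median of -0.70, or -0.35 without DSS_ICB 3 and 5, with 0 called and 4 lower at an unadjusted p under 0.05. Their summed FPKM was 439 to 644 in DSS, 488 to 743 in DSS_ICB and 381 to 618 in DSS_ICB_Fp. Plac8, singled out after its values were seen, made up most of that sum in 14 libraries, with 93.5 to 544 FPKM and a difference of 0.38 ± 0.36 (limma adjusted p = 0.5596), and the sum without it was 75.0 to 186 in DSS, 129 to 546 in DSS_ICB and 73.97 to 135 in DSS_ICB_Fp. S100a4 had a difference of -1.49 ± 0.39 (limma adjusted p = 0.0854) and Thbs1 one of -1.97 ± 0.57 (limma adjusted p = 0.09997).

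Neutrophil markers were the sole list with members past the threshold. In DSS_ICB_Fp against DSS_ICB, 5 of 10 tested markers (13 listed) were called lower, as were 0.125% of all tested genes, with a median over the list of -2.41. Without DSS_ICB 3 and 5 the count was 5 of 9 with a median of -1.68, and 0.127% of all tested genes were called lower. S100a8 and S100a9, the subunits of calprotectin, fell by 5.85 ± 0.75 and 6.10 ± 0.81 on the log2 scale (limma adjusted p = 0.006097 and 0.00702), and Retnlg, Clec4d and Csf3r also fell, by 3.52, 2.67 and 2.59 (limma adjusted p = 0.0229, 0.03403 and 0.0404). Summed FPKM of the 13 listed markers was 139 to 290 in DSS, 349 to 2128 in DSS_ICB and 130 to 312 in DSS_ICB_Fp, highest in DSS_ICB 3. Ly6g, with 87.2 to 502 FPKM, and Cd177, with 1.10 to 98.9, carried much of that sum in DSS and DSS_ICB_Fp, and Cd177 went the other way, with a difference of 2.23 ± 0.71 (limma adjusted p = 0.115). Without these markers, both singled out after their values were seen, the sum was 22.2 to 59.6 in DSS, 131 to 2040 in DSS_ICB and 2.57 to 35.0 in DSS_ICB_Fp. The group medians of all 10 members were also highest in DSS_ICB, but single mice differed. DSS_ICB 3, with a neutrophil sum of 2128, was the lowest of 15 for 5 members and above all mice of the other groups for 2. DSS_ICB 5, with a sum of 1384, was the highest of 15 for all 10 members. The part of neutrophils in the members' values was not tested. Ngp and Camp, granule genes of immature neutrophils, were listed at 0 in 13 and 10 libraries, S100a8 was listed at 0 in 2 DSS_ICB_Fp libraries and S100a9 in 1.

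B cell markers (9 of 9 tested) had a median of -1.42 in DSS_ICB_Fp against DSS_ICB with 0 called by limma and 6 lower at an unadjusted p under 0.05, and the smallest p-values were those of Cd79a, Pax5 and Cd79b, with limma adjusted p of 0.142, 0.1504 and 0.164. Their summed FPKM was 3.48 to 117 in DSS, 16.4 to 175 in DSS_ICB and 2.30 to 88.0 in DSS_ICB_Fp. DSS_ICB 5 and DSS_ICB 4 had the highest B cell sums of all mice, 175 and 147, and the highest Fcgr2b, 22.4 and 9.996 FPKM. DSS_ICB_Fp 5, with the highest B cell sum of its group, had the lowest Fcgr2b of all mice, 2.42 FPKM. The part of B cells in Fcgr2b was not tested. Fibroblast markers, a second source of versican, had a median of -0.84 over 10 tested genes, or -0.47 without DSS_ICB 3 and 5, with 0 called and 8 lower at an unadjusted p under 0.05, and summed FPKM of 365 to 532 in DSS, 527 to 1009 in DSS_ICB and 292 to 574 in DSS_ICB_Fp. Col3a1 had a difference of -1.12 ± 0.21 (limma adjusted p = 0.0515), Pdgfrb one of -0.85 ± 0.19 and Pdgfra one of -0.96 ± 0.22 (limma adjusted p = 0.0712 for both). Vcan and the fibroblast sum were both highest in DSS_ICB 3 and DSS_ICB 5. Other mice with like fibroblast sums differed in Vcan. DSS_ICB_Fp 2 and DSS_ICB 1 had sums of 574 and 573, with 2.13 and 5.60 FPKM of Vcan. DSS 4 and DSS_ICB 2 had sums of 532 and 527, with 1.92 and 5.01 FPKM of Vcan. The part of fibroblasts in Vcan was not tested.

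**Figure D5:**
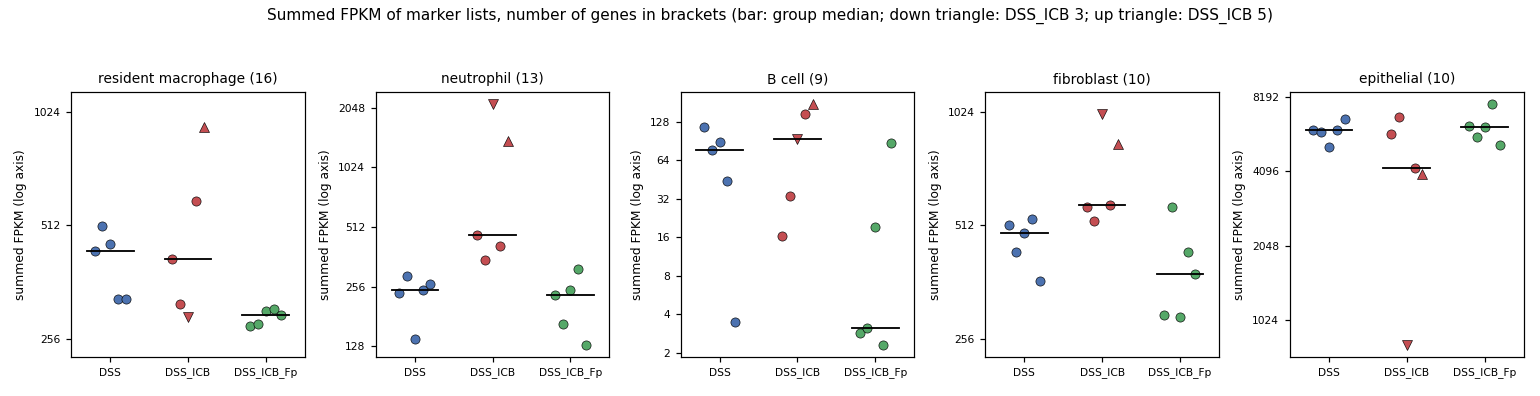
Summed FPKM of 5 marker lists in each mouse (log vertical axis), by group, with the group median as a bar and triangles for DSS_ICB 3 (down) and DSS_ICB 5 (up). DSS_ICB 3 has the highest neutrophil and fibroblast sums and the lowest epithelial sum, 810, and DSS_ICB 5 the highest resident macrophage sum, 931. Of that 931, Lyz2 gave 629.

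The other lists describe what else the tissue held. Common leukocyte markers had a median of -1.16 in DSS_ICB_Fp against DSS_ICB over 6 genes (-0.71 without DSS_ICB 3 and 5) with 0 called by limma and all 6 lower at an unadjusted p under 0.05, and Ptprc, which encodes CD45, had 4.87 ± 2.99 FPKM in DSS_ICB, 2.15 ± 1.35 in DSS_ICB_Fp and 3.46 ± 1.21 in DSS. Laptm5, Cd53 and Coro1a had the smallest p-values in that list, with limma adjusted p of 0.107, 0.1204 and 0.128. Epithelial markers had a median of 0.72 over 10 genes, or 0.13 without DSS_ICB 3 and 5, with 0 called, led by Slc26a3, the chloride exchanger of surface colonocytes, at 2.82 ± 0.74 (limma adjusted p = 0.0862), with Krt19 and Lgals4 next (limma adjusted p = 0.256 and 0.257). Smooth muscle markers had a median of -0.31 over 8 genes, with Actg2, Acta2 and Cnn1 between -0.40 and -0.31, but one of 0.52 with none of 8 below 0 without DSS_ICB 3 and 5. Erythroid markers had a median of -2.32 over 5 genes, with Hba-a2, Hbb-bs and Hba-a1 at limma adjusted p of 0.0938 to 0.104, and in both lists 0 were called. Mast cell markers had a median of 0.12 over 4 tested genes (Kit 0.41, Mcpt1 -0.43, Cma1 0.54), or -0.02 without DSS_ICB 3 and 5, and the tested dendritic cell markers, 2 of 8, were Ccr7 at -1.36 and Cd209a at -0.0078. Of eosinophil markers, Ear2 alone was tested, at -0.13, or -0.29 without DSS_ICB 3 and 5, and Epx was listed at 0 in all 15 libraries. None of 7 NK cell markers passed the filter on low values, and Ncr1, Klra8, Eomes and Prf1 were listed at 0 in 4, 8, 2 and 1 libraries.

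How the members varied from mouse to mouse was described by Spearman correlation of FPKM over the 15 libraries, which share their groups and the same pair of outlying libraries. Among the pairs of members, the correlation was highest for C1qa with C1qb (0.93), C1qa with Cd68 (0.92), C1qb with Cd68 (0.92) and Fcgr3 with Fcgr2b (0.90), and lowest for Fcgr4 with Csf1r (0.11) and Fcgr1 with Vcan (0.15). Fcgr2b with Vcan was at 0.86 and Fcgr3 with Vcan at 0.81. Over the 15 libraries C1qa, C1qb and Cd68 thus varied together, as did Fcgr3, Fcgr2b and Vcan. These sets were not distinct without DSS_ICB 3 and 5. Fcgr2b was then at 0.84 with C1qa (0.61 over all 15), 0.82 with Cd68 and 0.80 with C1qb, against 0.81 with Vcan. The genes most like each member among 12687 candidates were C1qc for C1qa (0.94), Ddx10 for C1qb (0.93) and Cd68 (0.94), Lgmn for Fcgr2b (0.94), Noc3l for Fcgr3 (0.91), Tnf for Fcgr4 (0.93), Zbp1 for Fcgr1 (0.90), Lama2 for Csf1r (0.90), Cyld for Adgre1 (0.89) and Mmp19 for Vcan (0.95). Next in order came C1qb and Cd68 for C1qa, C1qa and C1qc for C1qb, Nt5c1a and Thyn1 for Cd68, Ifi205 and Sfr1 for Fcgr2b, Dnaja1 and Fcgr2b for Fcgr3, and Ly6c1 and Armc1 for Fcgr4. For the other members they were Tifab and Irgm1 for Fcgr1, Lyz2 and Ankrd44 for Csf1r, Met and C3ar1 for Adgre1, and Ereg and Fndc3b for Vcan, at 0.85 to 0.95. Without DSS_ICB 3 and 5 (n = 13), the correlations of the first-named genes were 0.83 to 0.95.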

How the data were processed

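Colon RNA of 15 mice was sequenced, with 5 libraries in each of 3 groups taken from the treatment labels. Per the submitters' processing notes, reads were checked with FastQC and aligned with STAR 2.5 to mm10, and the tools listed further are Cuffnorm and DESeq. Each deposited file holds FPKM as computed by the authors (fragments scaled to transcript length and to library size), per the Cuffnorm named in those notes; a further scaling between libraries is not given in the sources used here. Of 55335 Ensembl IDs, 55154 matched a GENCODE M21 symbol.

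The 14385 genes that reached 1 FPKM in 5 or more libraries were fitted once as log2(FPKM + 1) with limma 3.58.1 in R 4.3.3 (trend and robust, 1 mean per group), which understates changes of low genes. P-values were two-sided and Benjamini-Hochberg adjusted over all tested genes, and a gene was called under 0.05. Depth was estimated from genes with 1 transcript. Only 28.4% to 33.1% of low values lay on whole steps (tolerance 0.03 log2), and 13.1% to 14.9% did so when the steps were shifted, so whole reads were not recovered and count tests were not used. The fit was tested on simulated data. The members and 17 lists (174 entries) were chosen with earlier results of these data known. Named were all 10 members, for each its 3 most correlated tested genes (predicted gene models left out), and from each list the called genes, the 3 with the smallest p in DSS_ICB_Fp against DSS_ICB, Ptprc and leukocyte markers listed at 0. One gene that this rule names is not reported here. Promoters were read from RefSeq (GRCm38.p6) and transcripts from GENCODE M21; the ITIM consensus was searched in the last 70 codons of the transcripts. Alternatives covered scaling, pseudocount, filter, fit, test and left-out libraries.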

Additional observations from a re-analysis of the deposited data

Results flagged for a closer look

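In groups of 5 mice, a mouse was noted where its gap to the nearest other mouse, divided by the range of the group, exceeded 0.71. Chance gives this in about 1 of 20 groups where values are normally distributed and groups are independent. It was found in 5 of the 30 groups examined (10 genes in 3 groups). The values were unlogged FPKM of genes that vary together, so this count cannot be set against chance. DSS_ICB 5 was the far mouse for 4 Fc receptor genes, with 7.395 FPKM of Fcgr1 (gap over range 0.784), 29.24 of Fcgr3 (0.774), 14.64 of Fcgr4 (0.955) and 22.42 of Fcgr2b (0.728). DSS 2 was the far mouse for Fcgr3 in its group, with 17.2 FPKM (0.843).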

How the results depend on the processing

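No paired analysis was possible because the numbers of the mice are names given within each group and match no mouse of another group. The member differences and counts were recomputed under 27 other settings (26 for Fcgr1 and Vcan), 15 of which left out 1 library. List medians were recomputed without DSS_ICB 3 and 5 alone. The count of members called in DSS_ICB_Fp against DSS_ICB was 0 as reported, 1 with a pseudocount of 0.1 (Vcan, limma adjusted p = 0.0401, with 0.292% of all tested genes called), and 6 with array quality weights (C1qa, C1qb, Cd68, Fcgr2b, Fcgr3 and Vcan), where 6.70% of all tested genes were called. Leaving out 1 library gave 0 to 2: Vcan passed without DSS_ICB 1, DSS_ICB 2, DSS_ICB 4 or DSS_ICB_Fp 4 (limma adjusted p = 0.0322, 0.0465, 0.00927 and 0.0273, with 4.10%, 0.931%, 0.518% and 3.18% of all tested genes called), and Fcgr2b without DSS_ICB 1 (0.0464). Over all settings the adjusted p of Vcan was 0.00927 to 0.233. In the other 2 comparisons no setting called a member, and the exact permutation test could call no gene in any comparison. Leaving out 1 library, groups without overlap numbered 0 to 1 in DSS_ICB against DSS (1 without DSS 5 or DSS_ICB 4), 2 to 4 in DSS_ICB_Fp against DSS_ICB (4 without DSS_ICB_Fp 4) and 0 to 1 in DSS_ICB_Fp against DSS (1 without DSS 4, DSS_ICB_Fp 4 or DSS_ICB_Fp 5). Leaving out a mouse can raise such counts for any genes but cannot lower them. The share of all tested genes was not computed for these settings, so the rises cannot be read as particular to the members.

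Some directions turned, and the cause was not tested. For DSS_ICB against DSS, Csf1r was -0.0056 with median-of-ratios scaling, -0.0177 with upper-quartile scaling, -0.0156 without mitochondrially encoded genes, -0.016 with a pseudocount of 0.1, -0.0293 without DSS_ICB 3 and 5, and -0.29 to 0.28 when 1 library was left out. With 1 library left out, the ranges in that comparison were -0.76 to 0.0186 for Adgre1 (-0.39 with all libraries, above 0 without DSS_ICB 3), and, below 0 without DSS_ICB 5, -0.16 to 0.43 for Fcgr1, -0.13 to 0.41 for C1qa and -0.0877 to 0.43 for C1qb. For DSS_ICB_Fp against DSS_ICB, Adgre1 was 0.028 with median-of-ratios scaling, 0.0176 with upper-quartile scaling, 0.0742 with a pseudocount of 0.1, and -0.42 to 0.36 when 1 library was left out. A filter at 5 FPKM left 8 members tested, without Fcgr1 and Vcan. The depth of these libraries is an estimate, and 5 mice per group limit what can be told apart.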
